A study of Mus musculus with 168 samples.

Results

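The chemokines described here are 8 secreted attractants of immune cells, Cxcl9, Cxcl10, Cxcl2, Ccl2, Ccl7, Ccl3, Ccl4 and Ccl5, taken by symbol from the platform annotation among the 19752 genes that had a probe set with a single symbol. Each was read by 1 probe set, so no choice between probe sets was needed. Levels are log2 intensities on Affymetrix Mouse Gene 1.0 ST arrays, where the brightness of a gene's probes is combined into a single value. A level on one probe set cannot be set against that on another, so each gene was compared only with itself.

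Chemokines are small proteins that draw leukocytes along a gradient by engaging G protein-coupled receptors. Interferon-gamma acts through JAK kinases to switch on Cxcl9 and Cxcl10, the ligands of Cxcr3 on activated T cells and NK cells. Inflammatory signals that act through NF-kB induce Cxcl2, a neutrophil attractant, and Ccl2 and Ccl7, which recruit monocytes through Ccr2. Ccl3, Ccl4 and Ccl5 attract monocytes and T cells, and activated lymphocytes, NK cells and macrophages are known to release them.

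The study asked what blocking JAK kinases by mouth does to the transcriptomes of immune cells. Male C57BL/6 mice, 6 weeks old, received by gavage SB00513404, SB00526221, SB00526222, SB00526226 or SB00526228, which are JAK inhibitors known here by code only and with no dose in the labels, or 0.5% methylcellulose, or the same vehicle at pH 3. The 122 inhibitor arrays, 39 plain vehicle arrays and 7 arrays of vehicle at pH 3 were read as 80 animals and 7 experiments from codes in the titles, which the labels do not define (J2, J3, J6, J8, J12, J23 and J25). The sorted populations were F4/80+ macrophages labelled spleen (33 arrays) or peritoneal cavity (33), and FLT3+ dendritic cells (20), NK1.1+ NK cells (27), CD4+ T cells (39) and Ly6G+ granulocytes (16), all from spleen.

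In spleen the prolonged schedule was 14, 15 or 28 treatments with harvest 14 to 18 h after the last, and the 4 h schedule was 3 treatments with harvest 4 h after the last. Every 4 h array came from J2 and none of them had a vehicle of that schedule, so vehicle arrays of the prolonged schedule were the comparison, and the inhibitor cannot be told apart from the hours and number of treatments there. Peritoneal macrophages were taken 1.5 to 6 h or 18 to 28 h after 1 treatment, or 18 h after 14. In CD4+ T cells, 4 inhibitor arrays and 1 vehicle array of J25 followed a single treatment.

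The sort labels were checked against marker genes. Gata6, the transcription factor of large peritoneal macrophages, had a median of 11.22 in the arrays labelled spleen macrophages and 11.24 in peritoneal macrophages, and it was at most 7.46 in any array of the other populations. Vcam1, a red pulp macrophage marker, had a median of 6.01 in the arrays labelled spleen macrophages, against 8.005 in dendritic cells. The mean of 5 red pulp markers (Spic, Vcam1, Hmox1, Slc40a1 and Cd5l) was higher there than in dendritic cells, unlike Vcam1 alone. It was not higher there than in peritoneal macrophages or granulocytes. Its medians were 7.81 in spleen macrophages, 7.91 in peritoneal macrophages, 7.98 in granulocytes and 7.59 in dendritic cells. The arrays labelled spleen macrophages thus held as much Gata6 as peritoneal macrophages, which goes against their tissue label, and they are called spleen macrophages only as labelled. Array medians lay between 6.90 and 7.15 (log2), no array was a copy of another, and 18 arrays stood apart from their population by correlation (6 of CD4+ T cells, 3 each of dendritic cells, NK cells and spleen macrophages, 2 of peritoneal macrophages and 1 of granulocytes).

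In vehicle arrays the chemokines differed in which population held the most. Cxcl9 was highest in dendritic cells, Ccl3, Ccl4 and Ccl5 were highest in NK cells, and Cxcl2 and Ccl2 were highest in both macrophage populations. Cxcl10 had no single leading population, and Ccl7 varied little. All 8 passed the moderated F test over the 6 populations (limma, Benjamini-Hochberg over 12614 genes), where 94.2% of genes passed. Of the 120 pairwise tests of members between populations 79 passed, and over all genes 52.3% of such tests did. The filter on low values kept genes above their array's median in at least 3 vehicle arrays, so a member enters where it is high, and these shares are no support for a difference. In sorted bulk RNA, fewer cells that make a transcript and less of it per cell cannot be told apart.

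**Figure D1:**
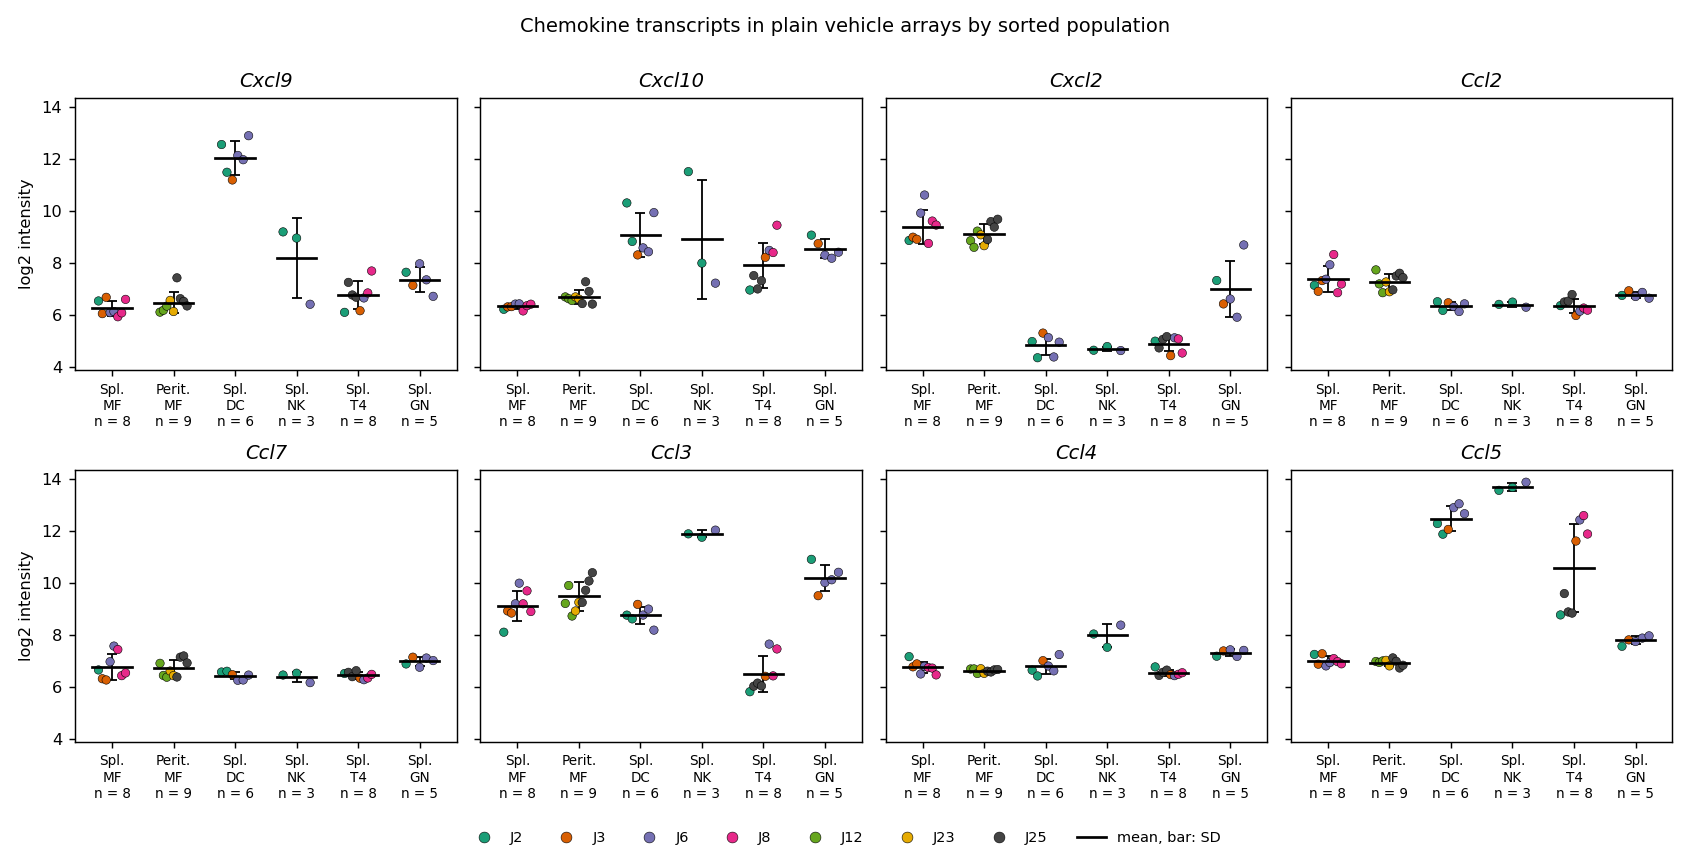
Log2 intensity of each chemokine (vertical axis) in plain vehicle arrays of the 6 sorted populations (horizontal axis). Points are arrays coloured by experiment, lines are means and bars are SD. Cxcl9 stands highest in dendritic cells, Cxcl2 in both macrophage populations and Ccl3 in NK cells, and Ccl5 in CD4+ T cells falls into 2 levels by experiment.

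Cxcl9 in vehicle dendritic cells was at 12.56, 11.49, 11.20, 12.14, 11.97 and 12.90, a mean of 12.04 ± 0.64 (SD, n = 6). NK cells followed at 9.20, 8.96 and 6.42, with a mean of 8.19 ± 1.54 (n = 3), and granulocytes at 7.37 ± 0.48 (n = 5). The dendritic cell arrays did not overlap those of any other population. CD4+ T cells were at 6.78 ± 0.52 (n = 8), peritoneal macrophages at 6.48 ± 0.41 (n = 9) and spleen macrophages at 6.27 ± 0.29 (n = 8). The difference between dendritic cells and NK cells, the next in order, was 3.88 ± 0.38 (SE) in log2 units (limma, adjusted p = 2.14e-11). Cxcl9 was thus one of the genes higher in dendritic cells than in each other population, which held for 4.61% of genes. NK cells and granulocytes did not differ past the threshold (0.75, adjusted p = 0.0908), nor did CD4+ T cells and either macrophage population.

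The Cxcl9 level of NK arrays differed by experiment. Over all treatments its median was 8.13 in the 14 NK arrays of J2, 6.80 in the 2 of J3 (6.26 and 7.33), 6.39 in those of J6 and 6.28 in those of J8. The mean of 5 dendritic cell markers (Flt3, Zbtb46, Xcr1, Clec9a and Siglech) in the same arrays ran from 6.37 to 8.633 in J2, from 6.12 to 6.24 in J3, from 6.20 to 6.24 in J6 and from 5.96 to 6.42 in J8. The marker mean in dendritic cell arrays had a median of 10.39 with vehicle. The highest Cxcl9 and the highest dendritic cell markers thus fell in J2, though the J3 array at 7.33 had low markers, and the part of the markers in the Cxcl9 level was not tested.

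No single population led in Cxcl10. It was at 10.31, 8.83, 8.31, 8.59, 8.44 and 9.94 in dendritic cells (mean 9.07 ± 0.84) and at 11.51, 8.0 and 7.23 in NK cells (8.91 ± 2.284). Granulocytes were at 8.55 ± 0.36 and CD4+ T cells at 7.92 ± 0.87. The first 3 of these populations overlapped, and limma called none of their pairs (dendritic cells minus NK cells 0.15, adjusted p = 0.864; minus granulocytes 0.44, adjusted p = 0.330). CD4+ T cells differed from dendritic cells (dendritic cells minus CD4+ T cells 1.12, adjusted p = 0.0127). They did not pass against NK cells (NK cells minus CD4+ T cells 0.97, adjusted p = 0.160) or granulocytes (CD4+ T cells minus granulocytes -0.68, adjusted p = 0.120). Their vehicle arrays were at 6.97 in J2 and 7.01 to 7.52 in J25, against 8.22 in J3, 8.49 in J6 and 8.41 to 9.46 in J8. Peritoneal macrophages stood at 6.70 ± 0.26 and spleen macrophages at 6.33 ± 0.10, below the array median in 16 of 17 arrays. The highest dendritic cell value and the highest NK value came from the same vehicle mouse of J2, whose spleen macrophage array was at 6.22.

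The CXC genes and Ccl3 had a promoter in the RefSeq table (4 of 8 members, build GRCm38.p6), and these are shown because the genes are known targets of the interferon and NF-kB pathways. Each sequence holds the 250 bases before the start site, 5′ to 3′ on the gene's strand. The window is chr5:92328080-92328329 (minus strand) for Cxcl9, chr5:92348890-92349139 (minus strand) for Cxcl10, chr5:90903649-90903898 (plus strand) for Cxcl2 and chr11:83649379-83649628 (minus strand) for Ccl3. Capitals mark matches to the core of the interferon-stimulated response element (ISRE, GAAANNGAA) or to the NF-kB consensus on either strand.
Cxcl9: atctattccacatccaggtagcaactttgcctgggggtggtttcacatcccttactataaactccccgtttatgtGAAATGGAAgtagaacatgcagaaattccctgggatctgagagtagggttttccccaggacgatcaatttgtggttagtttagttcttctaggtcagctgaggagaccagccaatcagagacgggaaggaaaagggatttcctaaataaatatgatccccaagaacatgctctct
Cxcl10: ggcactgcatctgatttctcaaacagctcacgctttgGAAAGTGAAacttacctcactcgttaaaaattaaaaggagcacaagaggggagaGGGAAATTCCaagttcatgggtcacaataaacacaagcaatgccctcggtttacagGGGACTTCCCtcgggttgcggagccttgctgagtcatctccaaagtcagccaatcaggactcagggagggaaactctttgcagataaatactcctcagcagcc
Cxcl2: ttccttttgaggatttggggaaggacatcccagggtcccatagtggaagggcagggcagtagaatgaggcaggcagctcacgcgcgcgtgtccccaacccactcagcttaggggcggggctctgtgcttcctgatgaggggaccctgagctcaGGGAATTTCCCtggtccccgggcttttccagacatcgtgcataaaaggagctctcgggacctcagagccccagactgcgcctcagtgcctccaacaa
Ccl3: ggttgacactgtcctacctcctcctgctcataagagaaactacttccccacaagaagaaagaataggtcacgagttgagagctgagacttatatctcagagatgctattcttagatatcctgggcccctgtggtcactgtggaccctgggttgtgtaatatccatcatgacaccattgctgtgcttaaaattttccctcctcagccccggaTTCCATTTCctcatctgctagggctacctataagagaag

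Cxcl9 held 1 ISRE core, from base -175 to -167 of the start site. Cxcl10 held 1 ISRE core from -213 to -205 and 2 NF-kB matches, from -159 to -150 and from -103 to -94. Cxcl2 held an NF-kB match on each strand, from -97 to -88 and, overlapping it, from -96 to -87, and no ISRE core. Ccl3 held 1 ISRE core on the opposite strand, from -39 to -31. No window held the interferon-gamma-activated site (GAS, TTCNNNGAA). Of 32851 promoters of this length, 7.13% held the ISRE core, 7.02% the GAS and 3.90% the NF-kB consensus. A match describes letters and is not a binding site. Ccl2, Ccl4, Ccl5 and Ccl7 are named only.

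Cxcl2, which draws neutrophils through Cxcr2, was highest in macrophages. Spleen macrophages ranged from 8.76 to 10.62 with a median of 9.23 (n = 8), and peritoneal macrophages from 8.606 to 9.69 with a median of 9.09 (n = 9). Granulocytes were at 7.33, 6.43, 6.62, 5.92 and 8.698, so that only the highest of them reached the range of peritoneal macrophages, and none that of spleen macrophages. Dendritic cells, NK cells and CD4+ T cells were at or below 5.31. Ccl2, the main monocyte attractant, ranged from 6.86 to 8.33 in spleen macrophages (median 7.26) and from 6.86 to 7.74 in peritoneal macrophages (median 7.28), against 6.65 to 6.94 in granulocytes. Cxcl2 and Ccl2 were higher in both macrophage populations than in each of the other 4, as 10.4% of genes were, and for Ccl2 the differences from granulocytes were 0.60 (spleen, adjusted p = 0.00144) and 0.47 (peritoneal, adjusted p = 0.0112). The macrophage populations did not differ past the threshold from each other in any of the 8 genes (limma, lowest unadjusted p 0.0955).

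Ccl7, a monocyte attractant encoded beside Ccl2, was at 6.98 ± 0.16 in granulocytes, 6.77 ± 0.50 in spleen macrophages and 6.71 ± 0.33 in peritoneal macrophages. The other populations were between 6.38 and 6.44 on average. It passed in 4 of 15 pairs, and all its group means lay below or near the array medians. Across arrays Ccl2 and Ccl7 varied together in most populations. Over the 33 peritoneal macrophage arrays Pearson's r was 0.89 and Spearman's rho 0.92 (permutation, adjusted p = 6e-05 and 0.00018 over 18 relations), with r = 0.87 after centring on experiment and 0.85 without the 2 arrays farthest from the median. Over the 33 spleen macrophage arrays r was 0.78 and rho 0.57 (permutation, adjusted p = 6e-05 and 0.00209), 0.76 within experiments and 0.55 without those 2 arrays. The pair also passed in NK cells (r = 0.76, rho = 0.70, permutation, adjusted p = 6e-05 and 0.00072) and CD4+ T cells (r = 0.51, rho = 0.52, adjusted p = 0.00243 each). Both genes were too low there to be tested against vehicle. Within experiments and without the 2 farthest arrays r was 0.66 and 0.63 in NK cells, and 0.325 and 0.41 in CD4+ T cells. Permutations here and below ran across experiments, so their p-values do not account for experiment. In dendritic cells r passed and rho did not (permutation, adjusted p = 0.0412 and 0.0655), and in granulocytes neither did (r = 0.36, permutation, adjusted p = 0.223).

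Ccl3, Ccl4 and Ccl5 led in NK cells. Ccl3 was at 11.88, 11.75 and 12.02 in vehicle NK cells, above every other vehicle array. Granulocytes were at 10.18 ± 0.51, peritoneal macrophages at 9.49 ± 0.56, spleen macrophages at 9.10 ± 0.57, dendritic cells at 8.743 ± 0.34 and CD4+ T cells at 6.49 ± 0.68. NK cells exceeded granulocytes, the next in order, by 1.77 (limma, adjusted p = 6.36e-05). The pairs of spleen macrophages with peritoneal macrophages and with dendritic cells did not pass.

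Ccl4 was at 8.03, 7.52 and 8.37 in NK cells and at 7.31 ± 0.13 in granulocytes, a difference of 0.66 (limma, adjusted p = 0.000122). The remaining populations had means between 6.541 and 6.79. Over the 27 NK arrays of all treatments Ccl3 and Ccl4 varied together (r = 0.70, rho = 0.64, permutation, adjusted p = 0.00018 and 0.00209), with r = 0.81 within experiments and 0.66 without the 2 farthest arrays. In the other 5 populations the same pair did not pass (lowest adjusted p 0.106).

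Ccl5 was at 13.55, 13.66 and 13.86 in NK cells. Dendritic cells followed with a mean of 12.46 ± 0.47, lower than NK cells by 1.33 (limma difference -1.33 for dendritic cells minus NK cells, adjusted p = 0.0377). Ccl3, Ccl4 and Ccl5 were each higher in NK cells than in every other population, as were 3.01% of genes. Granulocytes were at 7.79 ± 0.15, and spleen and peritoneal macrophages at 7.01 ± 0.18 and 6.93 ± 0.12.

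CD4+ T cells carried Ccl5 at 2 levels. The vehicle arrays were at 8.76 in J2 and at 9.58, 8.88 and 8.83 in J25, but at 11.60 in J3, 12.41 in J6 and 12.58 and 11.87 in J8. Over all treatments the mean was 8.92 in J2 (n = 11) and 9.05 in J25 (n = 12), against 11.95, 12.09 and 12.15 in J3, J6 and J8 (n = 2, 2 and 12). The arrays of J2 and J25 reached at most 10.25 and those of J3, J6 and J8 began at 11.60, so the sets did not overlap. Within J2, 3 inhibitor arrays (10.16 and 10.25 with SB00526222 and 9.83 with SB00526228) stood above the others, which ended at 8.76. The sort labels were the same in all of them.

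Other trafficking genes of the CD4+ T cell arrays split in the same way. Cxcr3, the receptor of Cxcl9 and Cxcl10, averaged 8.43 in J2 and 8.45 in J25, against 11.27, 11.27 and 11.25 in J3, J6 and J8. Ccr2 averaged 6.578 and 6.38 against 9.04, 9.23 and 9.33, and Cxcl10 averaged 6.87 and 7.08 against 8.6796, 8.53 and 8.644. Ccr7, which guides naive T cells into lymphoid tissue, ran the other way, at 12.39 and 12.57 against 11.50, 11.37 and 11.23. The mean of the 5 NK markers had medians of 5.43 and 5.49 in J2 and J25, and of 6.27, 6.36 and 6.64 in J3, J6 and J8, and the monocyte marker mean had medians of 6.14 and 6.01, against 6.90, 6.95 and 7.09. Of the NK markers, Ncr1 stayed between 4.58 and 5.93 in all CD4+ T cell arrays, against a median of 13.38 in NK cells, but Klrb1c, which encodes NK1.1, reached 10.59, against a median of 12.11. What set the experiments apart was not tested, and the comparisons below carry experiment as a term.

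**Figure D2:**
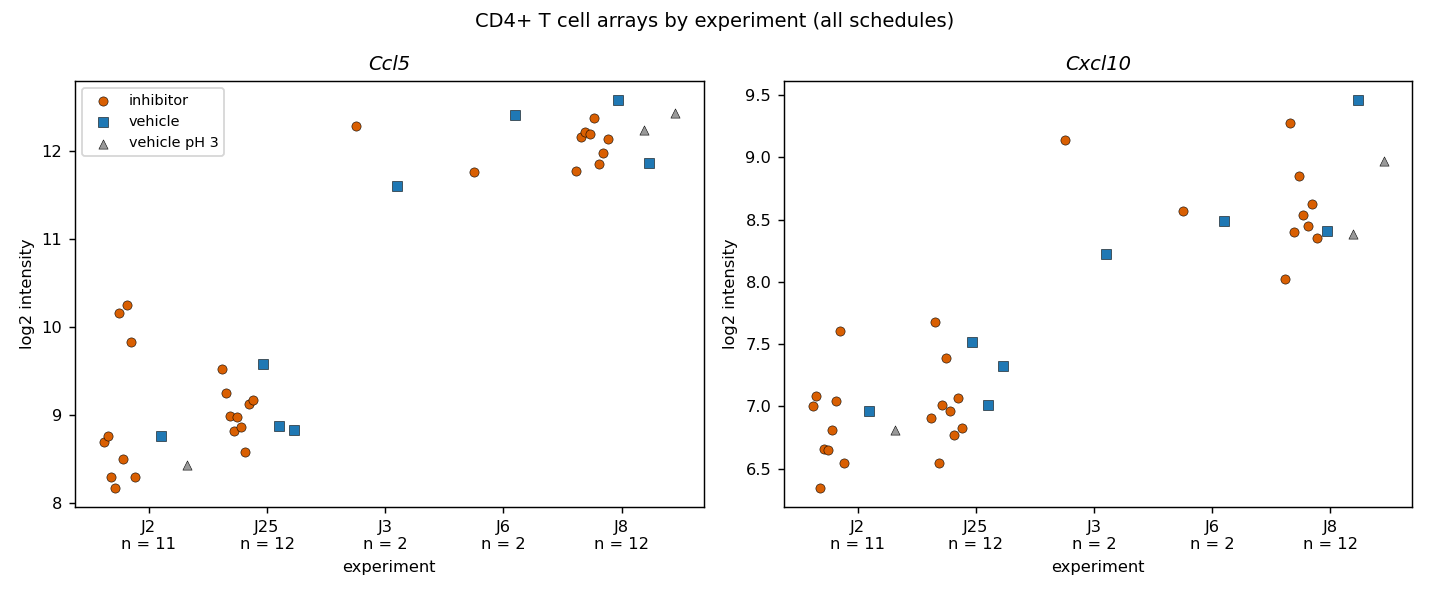
Log2 intensity of Ccl5 (left) and Cxcl10 (right) in CD4+ T cell arrays by experiment, all schedules. Circles are inhibitor, squares vehicle and triangles vehicle at pH 3. Ccl5 averages 8.92 and 9.05 in J2 and J25 and 11.95 to 12.15 in J3, J6 and J8, whatever the treatment.

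The genes whose vehicle levels most resembled each chemokine, by Pearson's r over the 39 vehicle arrays, are given as a description, since arrays of one population share their cells and arrays of one animal share their donor. For Cxcl9 they were Cd8a (0.975), Xcr1 (0.969) and Gpr33 (0.967), of which the first pair mark the cross-presenting dendritic cell subset. For Cxcl2 they were F5 (0.972), Thbs1 (0.970) and Plk2 (0.970), and for Ccl2 Plk2 (0.856), Rusc2 (0.854) and Camk1 (0.854). For Ccl5 they were Serpinb6b (0.975), Slc9a7 (0.971) and Slamf7 (0.970), and for Ccl4 Spry2 (0.889), Fcrl6 (0.880) and Mcam (0.879). Ccl3 was closest to Rap2a (0.867), Ptpn12 (0.845) and Anxa2 (0.843). Cxcl10 had looser neighbours, Cdc14a (0.853), Trim34a (0.826) and C030016D13Rik (0.810), and Ccl7 the loosest of the 8, Gm6498 (0.653), Sgk1 (0.641) and E230016K23Rik (0.637).

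The receptors had their own distribution in vehicle arrays. Cxcr2, the Cxcl2 receptor, averaged 13.07 in granulocytes and at most 6.14 elsewhere. Ccr1, which binds Ccl3 and Ccl5, averaged 11.59 in granulocytes, 10.45 in spleen macrophages and 10.39 in peritoneal macrophages, and 5.78 or less elsewhere. Ccr2, the receptor of Ccl2 and Ccl7, averaged 11.13 in NK cells and 8.98 in dendritic cells. Cxcr3 averaged 10.27 in NK cells. In CD4+ T cells its mean of 9.94 spans levels that differ by experiment. Over all treatments these were 8.43 and 8.45 in J2 and J25, against 11.25 to 11.27 in J3, J6 and J8. Cxcl2 thus had its highest vehicle levels in macrophages, and its receptor in granulocytes.

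No chemokine passed the threshold when the inhibitors were pooled. In 13 comparisons of inhibitor arrays with vehicle, 68 tests of members gave 0 calls (limma, Benjamini-Hochberg over all genes tested) and 14 at unadjusted p under 0.05, where 4.88% of all genes' tests were, and other settings of the same test gave 1 to 3 calls in 4 of the comparisons, as given in the closing section. Few genes of any kind were called. Where groups are said below not to overlap, this is a description only, since the share of all genes that did so was not counted. The share of all genes called was 0% for both dendritic cell schedules, prolonged NK cells, prolonged CD4+ T cells and peritoneal macrophages at 18 to 28 h or after 14 treatments. It was 0.00911% in spleen macrophages after prolonged treatment and 0.0182% at 4 h, 0.0648% in peritoneal macrophages within 6 h, 0.118% in NK cells at 4 h, 0.00889% in CD4+ T cells at 4 h, and 0.0271% and 0.0451% in granulocytes after prolonged treatment and at 4 h. Members tested numbered 5 in spleen macrophages, 6 in peritoneal macrophages, 4 in dendritic cells, 5 in NK cells, 4 in CD4+ T cells and 7 in granulocytes. The others did not reach their array's median in 3 arrays of the population.

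The largest difference from vehicle among these tests was in Cxcl10 of NK cells at 4 h. The 5 inhibitor arrays were at 6.45 and 6.74 (SB00526221), 7.15 (SB00526222) and 7.04 and 7.18 (SB00526226), and the 3 vehicle arrays at 11.51 and 8.0 (J2) and 7.23 (J6). The groups did not overlap, though the highest inhibitor array and the lowest vehicle array lay close together. The fitted difference was -2.42 ± 0.53 (SE; 95% interval -3.52 to -1.32; 5.35-fold lower) with an adjusted p of 0.0737 (limma), so it did not pass. Its size rested on the vehicle mouse at 11.51, which was also the highest in dendritic cells: without that array the difference was -1.01, and without the second or the third vehicle array it was -3.28 (adjusted p = 0.0233) or -2.85 (adjusted p = 0.0314). Without arrays standing apart Cxcl10 passed at -2.42 (adjusted p = 0.0335).

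Prolonged treatment gave NK Cxcl10 levels from 7.24 to 8.635 with a median of 8.09 (n = 19), inside the vehicle range. The fitted difference was -1.01 (limma, adjusted p = 0.998) and became 0.25 without the vehicle array at 11.51. Only J2 and J6 held both inhibitor and vehicle NK arrays, with differences of -1.66 and 0.44. Between schedules, 4 h minus prolonged inhibitor arrays, Cxcl10 differed by -1.41 (95% interval -2.28 to -0.54; limma, adjusted p = 0.0917), with all 5 arrays at 4 h below all 19 prolonged ones. Vehicle arrays entered that fit through the experiment term, and leaving out each in turn gave -1.51 to -1.24. Cxcl10 passed without the vehicle array at 11.51 (-1.26, adjusted p = 0.00612) and without the one at 8.0 (-1.51, adjusted p = 0.0369), and did not without the third (adjusted p = 0.1498).

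In the same comparison of NK schedules 184 genes passed (1.67% of those tested), and 6 were on the lists of related genes. Nr4a1, an immediate early gene downstream of antigen receptors, was lower at 4 h by 0.82 (limma difference -0.82, adjusted p = 0.0159) and Jun, part of the AP-1 factor, higher by 1.33 (adjusted p = 0.0323). Xcl1, the chemokine that attracts Xcr1+ dendritic cells, was lower (-0.83, adjusted p = 0.0161), as was Cd274, an interferon-gamma target that encodes PD-L1 (-0.44, adjusted p = 0.0469). Ccl9 was higher (0.71, adjusted p = 0.0256), as was the receptor Cx3cr1 (0.75, adjusted p = 0.0305). None of the 5 members tested in NK cells passed. Macrophage markers moved with these genes: the red pulp macrophage marker mean ran from 6.36 to 7.15 at 4 h (median 6.78) and from 5.92 to 7.52 with prolonged inhibitors (median 6.12), and all 3 of its tested genes had an unadjusted p under 0.05. Both tested genes of the macrophage list did as well, as did 1344 of all 11008 genes tested there. Their part in the calls was not tested.

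**Figure D3:**
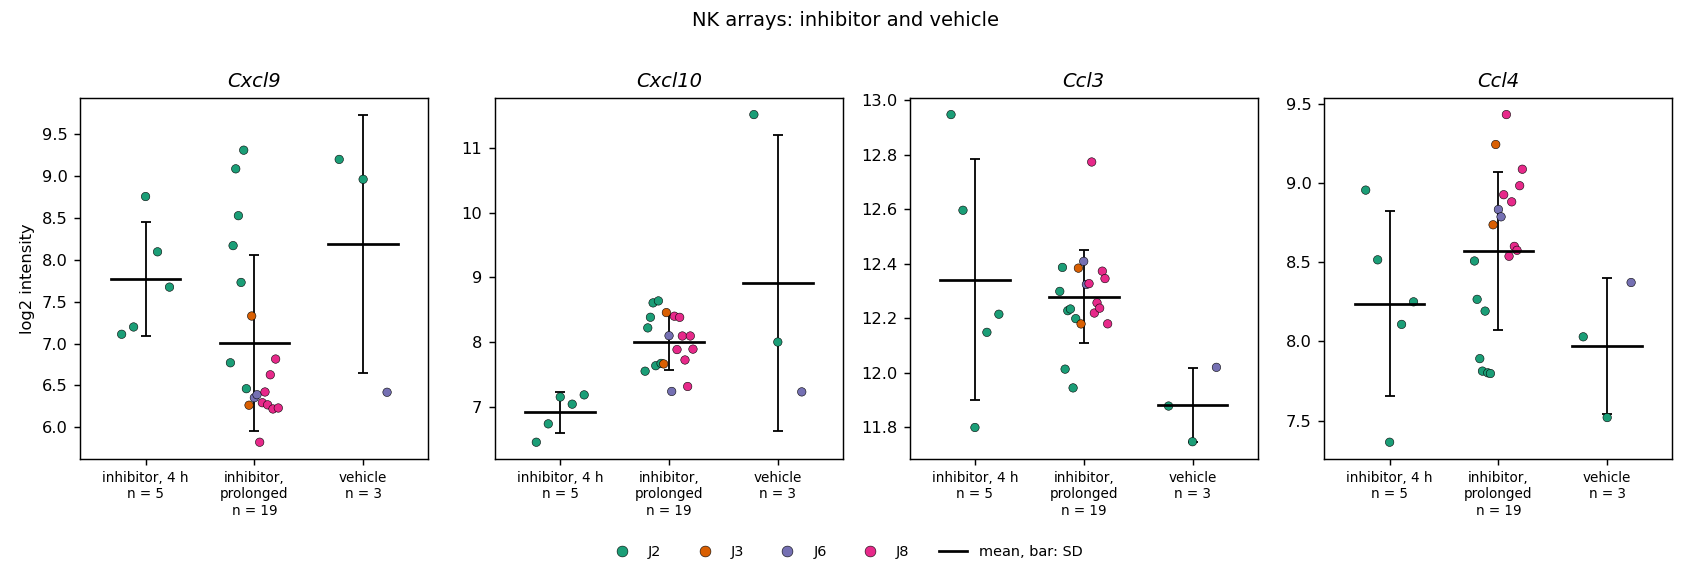
Log2 intensity of Cxcl9, Cxcl10, Ccl3 and Ccl4 (vertical axes, a scale for each) in NK arrays of inhibitors at 4 h, prolonged inhibitors and vehicle (left to right). Points are arrays coloured by experiment, lines are means and bars are SD. Cxcl10 at 4 h runs from 6.45 to 7.18, below the vehicle arrays at 11.51, 8.0 and 7.23, and Ccl3 with SB00526221 at 4 h is at 12.95 and 12.60, above the vehicle arrays at 11.75 to 12.02.

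Ccl3 in NK cells was the only member called with a compound in more than 1 array. With SB00526221 at 4 h it was at 12.95 and 12.60, against 11.88, 11.75 and 12.02 in vehicle NK cells. The groups did not overlap, and Ccl3 rose by 0.92 ± 0.16 (SE; 95% interval 0.59 to 1.26; 1.90-fold; limma, adjusted p = 0.0279), where 0.0636% of genes were called. The red pulp macrophage marker means of the pair were 6.36 and 6.78, against 5.99 to 6.47 with vehicle, and their part in the call was not tested. The call was lost on quantile normalization (0.91, adjusted p = 0.108) and on leaving out the first or the second vehicle array or either inhibitor array (0.75 to 1.10, adjusted p 0.0951 to 0.413). With SB00526222 the 1 array was at 11.80, inside the vehicle range, and with SB00526226 the pair were at 12.15 and 12.215, just above it (0.33, adjusted p = 0.419).

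Ccl3 did not pass with prolonged inhibitors. The arrays ran from 11.94 to 12.77 with a median of 12.26 (n = 19), against 11.75 to 12.02 with vehicle, and the 9 in experiments that held a vehicle array all lay above that experiment's vehicle mean. The difference was 0.34 (95% interval 0.10 to 0.58; limma, adjusted p = 0.998). It was 0.37 within J2 and 0.35 within J6. At 4 h the 3 inhibitors pooled differed from vehicle by 0.49 (0.22 to 0.76; adjusted p = 0.177).

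Ccl4, the neighbour of Ccl3 with a like function, was at 8.96 and 8.52 with SB00526221 at 4 h, against 8.03, 7.52 and 8.37 with vehicle, a difference of 0.95 (95% interval 0.45 to 1.45) that did not pass (limma, adjusted p = 0.166). In all 5 arrays at 4 h it differed by 0.45 (adjusted p = 0.395) and with prolonged treatment by 0.28 (adjusted p = 0.998). Ccl5 differed little, by 0.12 (95% interval -0.09 to 0.32) at 4 h and -0.01 (-0.20 to 0.18) with prolonged treatment. Cxcl9 in NK cells was at 7.11, 7.20, 8.76, 8.10 and 7.67 at 4 h, against 9.20, 8.96 and 6.42 with vehicle (difference -1.05, adjusted p = 0.393). The dendritic cell markers of those arrays averaged 6.97, 6.94, 8.10, 7.30 and 7.76, against 7.59, 8.12 and 6.20 with vehicle, and the array with the most Cxcl9 at 4 h also had the highest marker mean there. Their part in the difference was not tested.

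In dendritic cells, where Cxcl9 was highest, neither interferon-induced chemokine passed with any inhibitor. The vehicle arrays included 2 that stood apart by correlation, and these held the highest values of Cxcl9 (12.56 and 12.90) and Cxcl10 (10.31 and 9.94). Replicate 3 of prolonged SB00526222 stood apart too, and it was kept in the fits that left out only those 2 vehicle arrays. At 4 h Cxcl9 was at 10.84 (SB00526222) and 10.44 (SB00526226), against 11.20 to 12.90 in the 6 vehicle arrays, and Cxcl10 was at 7.91 and 7.81, against 8.31 to 10.31. Neither pair overlapped with vehicle, and how many of all genes separated in groups this small was not counted. The differences were -1.20 (95% interval -1.94 to -0.46; 2.299-fold lower) for Cxcl9 and -1.55 (-2.55 to -0.55; 2.92-fold lower) for Cxcl10, and neither passed (limma, adjusted p = 0.808 each). Without the 2 vehicle arrays standing apart they were -0.77 and -0.97 (adjusted p = 0.9997 each). Against prolonged inhibitor arrays the 4 h arrays differed by -0.85 for Cxcl9 and -1.13 for Cxcl10 (adjusted p = 0.9999 each). In J2 alone, with 2 arrays a side, 1 of them a vehicle array standing apart, Cxcl10 passed at -1.71 (adjusted p = 0.0196). Ccl3 differed by 0.12 at 4 h and by -0.07 after prolonged treatment. The same arrays had Ccl5 at 12.68 and 12.34, a difference of 0.45 (adjusted p = 0.808), and dendritic cell marker means of 10.65 and 10.86, against 9.96 to 10.71 with vehicle. Their red pulp macrophage marker means were 8.10 and 8.53, against 6.96 to 7.62 with vehicle, and their macrophage marker means 9.42 and 9.41, against 8.706 to 9.12. These markers did not overlap between the groups, and their part in the Cxcl9 and Cxcl10 differences was not tested.

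Over all prolonged inhibitor arrays Cxcl9 ran from 10.96 to 12.39 with a median of 11.58 (n = 12), and Cxcl10 from 7.15 to 9.90 with a median of 8.56. Vehicle had medians of 12.05 and 8.709 (n = 6). The differences were -0.35 (95% interval -0.78 to 0.08) and -0.42 (-0.997 to 0.17), with 9 of 12 arrays below the vehicle mean of their experiment for each gene (limma, adjusted p = 0.979 each). Without the 2 vehicle arrays standing apart the differences were 0.0042 and 0.0665, so their sign rested on those arrays. That fit kept the SB00526222 array standing apart, so arrays were left out on the vehicle side only. The direction was not the same in every experiment: Cxcl10 differed by -0.61 in J2 and -1.18 in J6 but by 0.77 in J3, where all inhibitor arrays had SB00526222 and 1 array had vehicle.

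Compounds overlapped in dendritic cells. With SB00526221 Cxcl10 was at 8.27, 8.29, 7.15, 8.26 and 8.02, all below the lowest vehicle array at 8.31, and Cxcl9 was at 11.17, 10.96, 11.01, 11.65 and 11.31, with 3 of the 5 below the lowest vehicle array at 11.20. Against vehicle the differences were -1.15 (95% interval -1.84 to -0.46; 2.225-fold lower) and -0.88 (-1.39 to -0.37), with 5 of 5 arrays below their experiment's vehicle mean, and neither passed (limma, adjusted p = 0.698 each). Without the 2 vehicle arrays standing apart they were -0.61 and -0.49. With SB00526222 Cxcl10 was at 9.34, 8.21, 9.52 and 9.52 and Cxcl9 at 11.51, 11.88, 12.39 and 12.238. The 1 array of SB00526226 had Cxcl10 at 9.90 and Cxcl9 at 11.80, and the 2 of SB00526228 had Cxcl10 at 8.83 and 9.15 and Cxcl9 at 11.81 and 11.22. SB00526221 minus SB00526222 was -1.44 (-2.47 to -0.41) for Cxcl10 and -1.11 (-1.87 to -0.34) for Cxcl9, with an adjusted p of 0.998 each.

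Across the 20 dendritic cell arrays Cxcl9 and Cxcl10 varied together (r = 0.75, rho = 0.73, permutation, adjusted p = 0.000648 and 0.00209). The correlation was 0.91 within experiments and 0.69 without the 2 arrays farthest from the median. In peritoneal macrophages r was 0.46 (permutation, adjusted p = 0.0249) but rho was 0.20 (adjusted p = 0.423), and in the other 4 populations neither passed.

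**Figure D4:**
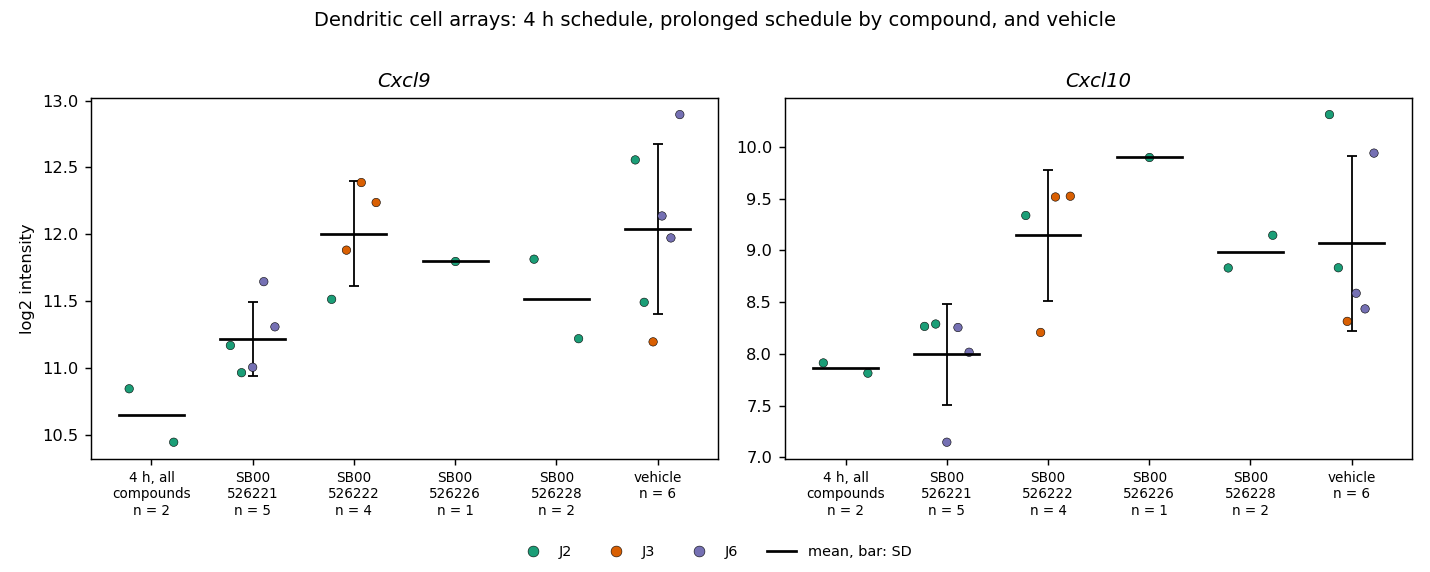
Log2 intensity of Cxcl9 (left) and Cxcl10 (right) in dendritic cell arrays at 4 h, after prolonged treatment by compound, and with vehicle (left to right). Points are arrays coloured by experiment, lines are means and bars, where a group has over 2 arrays, are SD. Cxcl10 with SB00526221 stays at or below 8.29 and the vehicle arrays start at 8.31.

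Among the macrophage attractants of monocytes, Ccl2 was lower in most inhibitor arrays. In spleen macrophages after prolonged treatment it ran from 6.38 to 7.43 with a median of 6.93 (n = 18), against 6.86 to 8.33 with a median of 7.26 with vehicle (n = 8). The ranges overlapped, and 16 of 18 arrays lay below the vehicle mean of their experiment. The difference was -0.51 ± 0.13 (SE; 95% interval -0.79 to -0.24; 1.42-fold lower; limma, adjusted p = 0.207), and every experiment gave a negative value, J6 the largest at -0.83 and J2 the smallest at -0.18, with J3 at -0.52 and J8 at -0.46. It passed on weighting the arrays (-0.49, adjusted p = 0.0233) and without vehicle replicate 7, the array with the least Ccl2 of its group (-0.61, adjusted p = 0.0289). In the other 25 fits without 1 array it did not pass, with values as small as -0.37 (without vehicle replicate 6, the highest at 8.33) and adjusted p up to 0.611.

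Ccl7 followed it in spleen macrophages, from 6.19 to 7.10 with a median of 6.47, against 6.26 to 7.57 with a median of 6.59 with vehicle. The difference was -0.30 (95% interval -0.55 to -0.05; limma, adjusted p = 0.997), and within experiments it ran from -0.97 in J6 to 0.04 in J3. At 4 h Ccl2 was at 6.94, 6.61, 6.89 and 7.03, all 4 below the single vehicle array of J2 at 7.15. The fit over all spleen macrophage arrays gave differences of -0.56 for Ccl2 and -0.44 for Ccl7 (limma, adjusted p = 0.625 each). Within J2 alone they were smaller, -0.28 and -0.24. At 4 h against prolonged inhibitors 36 genes passed in spleen macrophages (0.328%) and no member did, and of the listed genes Cxcl13, which attracts B cells, was lower at 4 h (limma difference -0.56, adjusted p = 0.0320). The macrophage marker mean ran from 10.89 to 11.40 in prolonged inhibitor arrays, against 10.95 to 11.37 with vehicle, and the monocyte marker mean from 8.19 to 9.51, against 8.51 to 9.86.

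With SB00526221 for the prolonged schedule, 4 of the 5 members tested in spleen macrophages had an unadjusted p under 0.05, as had 5.94% of all genes there, and none passed the adjusted threshold. Ccl2 was at 6.98, 7.13, 6.79, 6.549, 6.88 and 6.38, each below its experiment's vehicle mean (-0.75, 95% interval -1.11 to -0.39; limma, adjusted p = 0.0664). Ccl7 differed by -0.52 (adjusted p = 0.222), Ccl3 by -0.67 (adjusted p = 0.270) and Cxcl2 by -0.58 (adjusted p = 0.442). SB00526221 minus SB00526222 was -0.83 (-1.35 to -0.32) for Ccl3, -0.54 for Cxcl2 and -0.44 for both Ccl2 and Ccl7, all with an adjusted p above 0.99.

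In peritoneal macrophages within 6 h of 1 treatment, Ccl2 ran from 6.37 to 8.06 with a median of 6.83 (n = 12), against 6.86 to 7.74 with a median of 7.36 with vehicle (n = 6). The array at 8.06 was the only one taken 1.5 h after SB00513404, and it had the highest Ccl7 of the inhibitor group as well. The difference was -0.41 (95% interval -0.74 to -0.09) for Ccl2 and -0.25 (-0.51 to 0.00) for Ccl7, with 10 of 12 arrays below their experiment's vehicle mean for each (limma, adjusted p above 0.99). Within J12 the Ccl2 difference was -0.64 and within J25 it was -0.42, while J23 gave -0.01. At 18 to 28 h Ccl2 differed by 0.13 (-0.31 to 0.57) and after 14 treatments by -0.17 (-0.67 to 0.33). Both were set against the same 3 vehicle arrays, 1 after a single treatment and 2 after 14. The early effect minus the late effect was -0.54 (-1.08 to -0.0025; adjusted p = 0.880), so a change with time was not shown. After 14 treatments Ccl3 was at 9.09 and 9.10 (SB00513404) and at 9.23 and 8.757 (SB00526222), against 9.24 and 9.71 with vehicle. The vehicle array after 1 treatment, which the fit also used, was at 9.25. The groups did not overlap, but the difference of -0.38 (-1.08 to 0.31) did not pass (limma, adjusted p = 0.997).

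**Figure D5:**
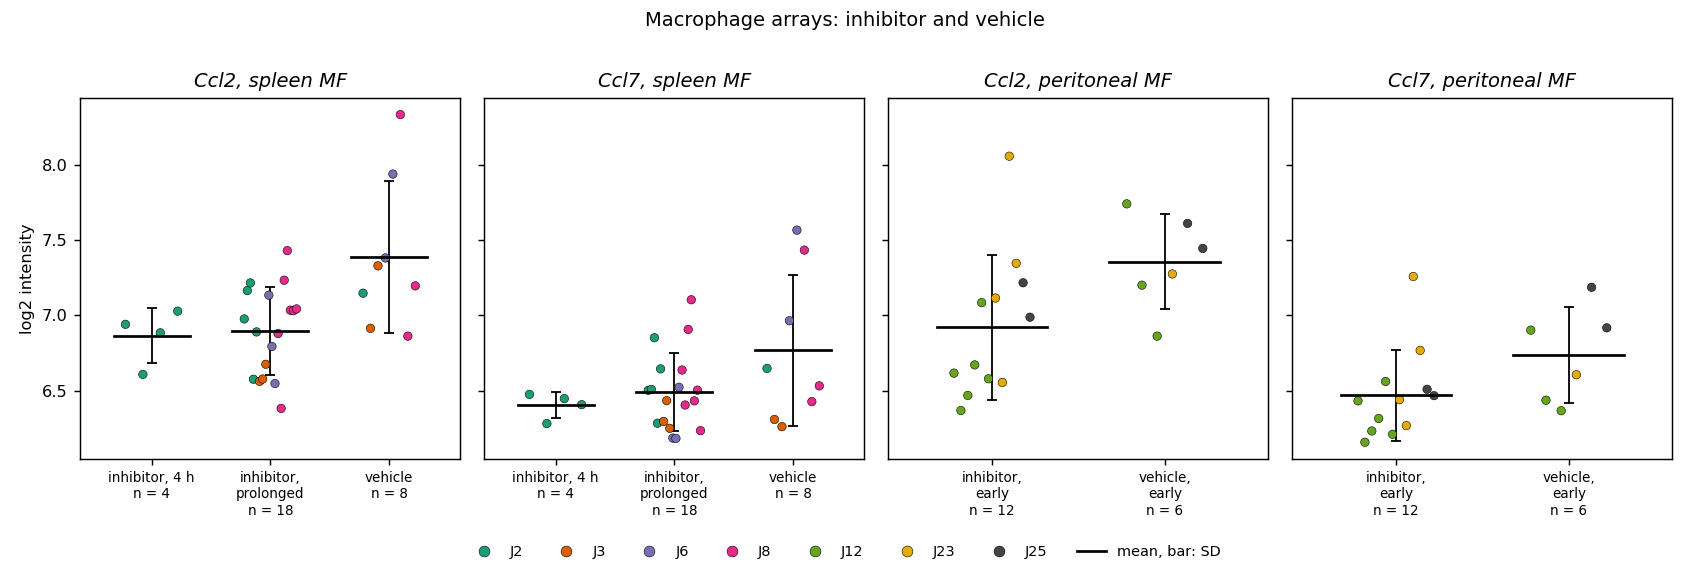
Log2 intensity of Ccl2 and Ccl7 in arrays labelled spleen macrophages (left pair: inhibitors at 4 h, prolonged inhibitors, vehicle) and peritoneal macrophages within 6 h of 1 treatment (right pair: inhibitor, vehicle). Points are arrays coloured by experiment, lines are means and bars are SD. Ccl2 has medians of 6.93 with prolonged inhibitors and 7.26 with vehicle in spleen macrophages, and the ranges overlap.

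Granulocytes at 4 h had 1 array that stood out. With SB00526221 Cxcl2 was at 11.37, above the other 4 h arrays at 8.12 and 8.49 (SB00526222) and 6.78 (SB00526226) and above the vehicle arrays, 5.92 to 8.698. The fitted difference for that single array was 4.03 and did not pass (limma). With experiment as a term it rests on the 1 vehicle array of J2, at 7.33, so 1 array was set against 1. The same array had the highest Ccl3 and Ccl4 among the 16 granulocyte arrays, 11.16 and 8.05, and it came from the mouse with the highest NK Ccl3 (12.95). Its macrophage marker mean was 8.81, against 8.81 to 8.97 in the vehicle granulocytes, and its granulocyte marker mean was 13.23, against 13.11 to 13.34.

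Over the 4 granulocyte arrays at 4 h Cxcl2 differed by 1.36, Cxcl9 by -0.93 and Cxcl10 by -0.70, and none passed (limma). With experiment as a term these differences rest on the 1 vehicle array of J2, at 7.33, 7.65 and 9.08. All 4 were below that array for Cxcl9 and Cxcl10. Its Cxcl10 was the highest of the 5 vehicle granulocyte arrays, whose mean was 8.55, against a mean of 8.38 at 4 h. After prolonged treatment no member passed either, and Ccl7 was lower than its experiment's vehicle mean in 6 of 6 arrays (-0.27, adjusted p = 0.600). The other 6 tested members differed by -0.26 to 0.08.

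In CD4+ T cells no member passed in the pooled comparisons, which had experiment as a term. At 4 h the mean of Ccl5 was 8.6999 in inhibitor arrays and 10.81 in vehicle arrays, but all inhibitor arrays at 4 h came from J2, whose mean over all arrays was 8.92. The fitted difference was -0.34 (95% interval -0.99 to 0.30; limma, adjusted p = 0.9999). After prolonged treatment Ccl5 differed by 0.02 (-0.37 to 0.41) and Cxcl10 by -0.01 (-0.33 to 0.32). SB00513404 gave Cxcl9 levels of 6.47, 6.66, 6.34 and 6.30 after 14 or 28 treatments, against 7.26 and 6.78 in the prolonged vehicle arrays of J25 (-0.70, adjusted p = 0.9999). The 3 inhibitor arrays 18 h after 1 treatment had no vehicle of their schedule and were set against prolonged vehicle. All 4 members tested were lower there (median -0.55, against 0.04 over all genes), as were 40.5% of genes. None passed, and 1 had an unadjusted p under 0.05 (limma), as had 213 of 11246 genes. At 3 h, 1 array of SB00513404 against 1 of vehicle gave a member median of -0.07.

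Cxcl9 was called in CD4+ T cells with SB00526228, on the strength of 1 array. It was at 8.40, against 6.11 in the J2 vehicle array and 6.11 to 7.70 in all 7 prolonged vehicle arrays, a difference of 1.999 (95% interval 1.23 to 2.77; 4.00-fold; limma, adjusted p = 0.00125), where 1.69% of genes were called. That array stood apart from the other CD4+ T cell arrays. Its dendritic cell marker mean was 8.37 and its granulocyte marker mean 10.48, against medians of 6.19 and 5.63 in the CD4+ T cell arrays of J2. Those markers' part in its Cxcl9 level was not tested.

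Over 41 comparisons of single compounds with vehicle, 210 tests of members gave these 2 calls and 35 at unadjusted p under 0.05, where 4.85% of all genes' tests were. Compounds were compared with each other in 14 pairs at matched schedules, in 68 tests. None passed (limma, lowest adjusted p 0.532; 8 at unadjusted p under 0.05, against 4.58% of all genes' tests), and the differences ran from -1.44 to 0.45. The intervals quoted above for SB00526221 minus SB00526222 in dendritic cells and spleen macrophages lie below 0, so equal levels were not shown either. Doses are not in the labels, and the codes give no structure to compare.

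The vehicle at pH 3 had no member called against plain vehicle in spleen macrophages, CD4+ T cells or granulocytes (limma; 0 of their 16 member tests had an unadjusted p under 0.05, against 3.34% of all genes' tests). The prolonged effect was compared between the 5 spleen populations for the 2 members that passed the filter in all of them. Ccl3 and Ccl5 both had an adjusted p of 0.99998 (limma moderated F, unadjusted p = 0.400 and 0.928). A difference of effect between cell types was therefore not shown, and it was not tested for the other 6.

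None of the related genes passed in the pooled comparisons either. Over the 13 pooled comparisons 22 other chemokines gave 114 tests, 12 receptors 107, 11 interferon-gamma targets 123, 13 NF-kB targets 131 and 12 immediate early genes 154 (limma; lowest adjusted p 0.335, 0.258, 0.198, 0.582 and 0.183), and 7, 9, 9, 6 and 23 had an unadjusted p under 0.05, as did 4.88% of all tests. The median of the interferon-gamma targets was below the median of all genes in 13 of 13 comparisons, between -0.18 and 0.03, and that of the 8 chemokines in 8 of 13, between -0.54 and 0.12. Many of these comparisons share vehicle arrays, so they do not count as separate observations.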

How the data were processed

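Per the submitters' processing notes, Affymetrix Power Tools and RMA gave the intensities that were deposited, with versions not given in the sources used here. They were taken as linear, since array medians lie between 119.5 and 142.3, and log2 was used without a pseudocount. Of 24922 probe sets, 21425 had a single symbol in the platform annotation, and the one with the highest mean stood for each of 19752 genes.

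Groups came from the labels (compound, number of treatments and hours), and experiment and animal from the titles. Tests used limma 3.58.1 in R 4.3.3, two-sided, with Benjamini-Hochberg adjustment over the genes above the array median in at least 3 arrays of the population and a threshold of 0.05. Group and experiment were fixed effects. Baseline fits had population as fixed effect and animal as random block. Inhibitors were pooled by their number of arrays. Animal codes differ between the arrays of a population, and p-values measure the spread between arrays. The number of arrays limits precision, and 1-array groups take the spread of the others. The test was checked on simulated data. Correlations used Python 3.11.15, numpy 2.4.6 and scipy 1.17.1 with 100000 permutations (smallest p 1e-05), and figures matplotlib 3.10.9.

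The naming rule held all 8 members, and those not described in a comparison were not called there. It added 3 resembling genes each and, from the lists, only genes past the threshold (at most 4 a list). Members and lists were chosen with earlier results of these data known. Alternatives changed the experiment term, filter, normalization, array weights, spread prior, probe set choice, arrays included, animal block and comparison arrays.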

Additional observations from a re-analysis of the deposited data

Results flagged for a closer look

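Of 152 checks (8 genes in 19 groups of 4 to 10 arrays), 9 found an array whose gap to the others was large for the group's range, and chance gives about 1 in 20. In NK cells with prolonged SB00526221, Cxcl9 was at 8.17 in replicate 2 (J2), against 5.82 to 6.77 in the other 6, and Ccl3 at 12.77 in replicate 6 (J8), against 12.2195 to 12.41; the Ccl3 array had a macrophage marker mean of 7.21, against 6.25 to 6.66, and its part was not tested. With prolonged SB00526222, NK Ccl5 was at 13.58 in replicate 1 (J2), against 13.73 to 13.79. In dendritic cells Cxcl10 was at 7.15 in replicate 3 (J6) of prolonged SB00526221, against 8.02 to 8.29, and at 8.21 in replicate 2 (J3) of prolonged SB00526222, against 9.34 to 9.52.

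In CD4+ T cells with prolonged SB00513404, Ccl3 was at 8.07 in replicate 1 (J25), against 5.60 to 5.83; that array had a macrophage marker mean of 7.16 and a large peritoneal macrophage marker mean of 8.18, and their part was not tested. CD4+ T cell Ccl4 was at 6.77 in vehicle replicate 1 (J2), against 6.43 to 6.558. In peritoneal macrophages within 6 h, Ccl7 was at 7.26 in replicate 5 (J23) of SB00513404, the array at 1.5 h, against 6.16 to 6.51, and Ccl4 at 6.51 in vehicle replicate 3 (J12), against 6.65 to 6.70.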

How the results depend on the processing

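Under the alternatives, 336 counts of called members equalled the reported count or stayed within 1.5 times of it, and 8 moved. Of the differences of single genes, 329 kept their sign and side of the threshold. Another 13 came to pass, 6 no longer passed and 3 reversed sign. With array weights 1 member was called in prolonged spleen macrophages (Ccl2), 1 in prolonged NK cells (Ccl3, adjusted p = 0.0492) and 3 in NK cells at 4 h (Cxcl10 at -1.68, Ccl3 and Ccl4), against 0 each in the fits reported; the weights did not converge in 2 fits. Without arrays standing apart 2 members were called in NK cells at 4 h (Cxcl10 and Ccl3), and with J2 arrays only 1 in dendritic cells at 4 h (Cxcl10). Leaving out 1 array at a time gave 0 to 1 calls in prolonged spleen macrophages and 0 to 1 in NK cells at 4 h. Prolonged NK Cxcl10, at -1.01, ran from -1.78 to 0.25 on leaving out 1 array at a time, and was positive without vehicle replicate 1. Chosen after seeing the data, leaving out the dendritic cell vehicle arrays standing apart gave prolonged Cxcl9 at 0.0042 and Cxcl10 at 0.0665, against -0.35 and -0.42. The inhibitor array standing apart was kept there. NK Ccl3 with SB00526221 at 4 h had an adjusted p between 0.000188 and 0.108 over 8 settings, and CD4+ T cell Cxcl9 with SB00526228 fell to 1.61 (adjusted p = 0.0593) without the experiment term. The cause of these changes was not tested. The baseline count of 79 ran from 72 to 83 over 9 settings, which include 1 chosen after seeing the data (without CD4+ T cell vehicle arrays of J3, J6 and J8), and from 76 to 80 on leaving out 1 array. No paired analysis was possible because, within a population, inhibitor and vehicle arrays share no animal and replicate numbers only follow the order of the arrays. Between populations animal was the block, and 76 member pairs passed without it.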
